A study of Mus musculus with 2 samples.

Results

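Protein-coding genes whose transcript is a single exon were described in mouse adrenal gland from 456 annotated models: known transcript models with 1 exon and the biotype protein_coding in GENCODE M21 that received at least 1 read in either library, with spike-ins and the mitochondrial chromosome left out. They belonged to 453 genes and stood among 24777 known models with reads, of which 17916 were spliced protein-coding models. The RNA came from adrenal glands taken at 14 days from male B6CASTF1/J mice and was read by long-read RNA-seq, in which 1 read can cover a whole cDNA molecule. The strain is an F1 hybrid of C57BL/6J and CAST/EiJ. The series has 1 group and 2 libraries, called replicate 2 and replicate 1 in the labels, with no second genotype, treatment or age. The labels name a set of 3 males, carry the same donor identifier for both libraries and number the biosamples 4 and 3, so separate animals cannot be taken for granted. All comparisons below set replicate 2 over replicate 1. Their p-values compare these libraries alone and, like the intervals, reflect no more than counting error.

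Most mammalian genes carry introns, and those that do not fall into a few kinds. Some are old intronless genes whose messages are made and lost quickly, such as the JUN and C/EBP transcription factors and the inducible 70-kDa heat shock proteins. Others are retrocopies, made when a spliced message was copied back into the genome, and the replication-dependent histones, whose messages end in a stem-loop in place of a poly(A) tail. A read of an intronless transcript holds no splice junction, so it cannot be told by splicing from a read of genomic DNA or of unspliced RNA.

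Replicate 2 held 984958 reads and replicate 1 held 964679 reads once 18103 and 17018 spike-in reads were removed, and levels are given as reads or as CPM, reads per 1000000 of these. A count of 0 allows up to 3.05 CPM in replicate 2 and 3.11 CPM in replicate 1. Genes that mark the adrenal (Cyp11a1, Star, Cyp21a1, Cyp11b1, Nr5a1, Chga, Chgb, Th, Dbh and Pnmt) summed to 41826 reads in replicate 2 and 41288 in replicate 1. Within this sum Cyp11a1, Nr5a1 and Pnmt had a higher CPM in replicate 2 and the other genes a lower one. Cyp11a1 had 18160 CPM in replicate 2 and 15608 in replicate 1, and Cyp11b1 had 4573 and 5848. Replicate 2 stood apart in 8 hepatocyte genes (Alb, Ahsg, Apoa1, Apoa2, Ttr, Fgb, Fga and Serpina1a), which summed to 15422 reads there and to 727 in replicate 1, and all 8 were detected in both libraries. In bulk tissue, fewer cells of a type and less RNA per cell cannot be told apart.

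The promoters of Hspa1a, Hspa1b and Junb are shown because these genes differed strongly between the libraries. The windows come from RefSeq on GRCm38.p6 and run from 250 bases before to 50 after the annotated start, 5′ to 3′ on the minus strand of each gene. They are Hspa1a at chr17:34972107-34972406, Hspa1b at chr17:34959189-34959488 and Junb at chr8:84978699-84978998. Capitals mark matches to GAANNTTC or TTCNNGAA, a pair of the blocks that heat shock factor binds, and to CCAAT or its reverse complement ATTGG.
Hspa1a promoter: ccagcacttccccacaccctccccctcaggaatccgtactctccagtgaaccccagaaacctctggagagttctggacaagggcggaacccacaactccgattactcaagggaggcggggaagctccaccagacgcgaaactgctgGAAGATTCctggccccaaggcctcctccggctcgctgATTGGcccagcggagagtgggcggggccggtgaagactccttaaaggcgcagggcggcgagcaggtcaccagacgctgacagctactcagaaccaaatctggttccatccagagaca
Hspa1b promoter: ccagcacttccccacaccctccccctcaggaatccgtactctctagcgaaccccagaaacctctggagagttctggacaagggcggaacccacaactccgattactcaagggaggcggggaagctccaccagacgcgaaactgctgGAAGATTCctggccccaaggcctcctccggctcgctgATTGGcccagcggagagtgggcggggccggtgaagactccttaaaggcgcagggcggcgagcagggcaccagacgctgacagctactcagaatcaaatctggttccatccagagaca
Junb promoter: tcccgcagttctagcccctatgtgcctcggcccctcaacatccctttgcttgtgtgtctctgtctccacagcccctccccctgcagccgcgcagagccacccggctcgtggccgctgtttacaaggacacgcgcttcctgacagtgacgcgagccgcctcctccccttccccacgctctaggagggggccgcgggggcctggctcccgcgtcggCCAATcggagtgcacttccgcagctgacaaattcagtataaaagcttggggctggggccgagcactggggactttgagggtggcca
The Hspa1a and Hspa1b windows differ at 4 of 300 positions, counted from 1 at the 5′ end of the window and written from Hspa1a to Hspa1b as C44T, T47C, T249G and C276T. Each holds 1 paired block and 1 CCAAT match, and the Junb window holds 1 CCAAT match and 1 TATAAA. Of 32851 RefSeq promoter windows, 15.1% hold a paired block, 37.4% a CCAAT and 13.6% a TATAAA, all searched on both strands. A run of 3 blocks (GAANNTTCNNGAA or TTCNNGAANNTTC), searched first, occurs in 0.603% of all windows and in 0 of these 3, which says only that these letters are not in the windows; the shorter motifs were chosen after that search. Among the 274 member genes with a RefSeq window, 10.6% hold the paired block, 37.6% a CCAAT and 8.76% a TATAAA. Here a gene counts if any of its windows holds the motif, so these percents of genes are not like for like with the percents of windows.

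The next sequences show how close a retrocopy can be to the spliced message of its relative. Each line is 60 bases of coding sequence from GENCODE M21 transcripts, centred on an exon junction of the relative, whose 8 flanking bases are in capitals. The Ftl1-ps1 stretch lies at chr13:74406676-74406735 on the plus strand and the Rpl10-ps3 stretch at chr9:50344830-50344889 on the minus strand of GRCm38.
Ftl1-ps1: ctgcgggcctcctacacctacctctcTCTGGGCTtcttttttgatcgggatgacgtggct
Ftl1 spliced: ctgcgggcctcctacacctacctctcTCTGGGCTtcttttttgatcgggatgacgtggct
Rpl10-ps3: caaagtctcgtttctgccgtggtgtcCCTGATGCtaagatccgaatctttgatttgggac
Rpl10 spliced: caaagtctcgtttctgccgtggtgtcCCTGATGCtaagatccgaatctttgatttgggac
In both pairs 0 of 60 bases differ, so a read of these bases fits either gene unless it is placed by its other bases or by the gap an intron leaves in the alignment.

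The third set is the histone stem-loop, shown because it divides the histone models by how they end. Each line is 30 bases of the GENCODE M21 transcript with the 16-base match to GGNNCTNTTNAGNNCC in capitals. The stretches lie on GRCm38 at chr3:96239777-96239806 (minus), chr3:96246025-96246054 (plus), chr13:23739505-23739534 (plus), chr11:58955165-58955194 (plus) and chr13:23531451-23531480 (plus), in the order of the lines.
Hist2h2aa2 stem-loop: ctaaaaaGGCTCTTTTCAGAGCCacccact
Hist2h2aa1 stem-loop: ctaaaaaGGCTCTTTTCAGAGCCacccact
Hist1h1c stem-loop: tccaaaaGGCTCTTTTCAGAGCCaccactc
Hist3h2a stem-loop: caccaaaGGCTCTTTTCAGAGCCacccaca
Hist1h4h stem-loop: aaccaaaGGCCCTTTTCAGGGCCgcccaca

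The single-exon models took a small and similar share of both libraries. They held 14479 reads, 1.47% of replicate 2 (Wilson 95% interval 1.45 to 1.49%), and 13526 reads, 1.40% of replicate 1 (1.38 to 1.43%). Of the 456 models, 409 were detected in replicate 2 and 386 in replicate 1, with 339 in both. The 70 models found in replicate 2 alone had at most 13 reads, the 47 found in replicate 1 alone had at most 3, and 84 models had a single read over both libraries. Detection was 456 of 2812 annotated single-exon coding models (16.2%). Without the olfactory, vomeronasal and taste receptors, which had no read, it was 456 of 1489 (30.6%), against 17916 of 56058 spliced coding models (32.0%). These are shares of models, and a spliced gene can have several models, so the percents are not a like-for-like comparison.

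A few genes supplied much of this RNA. The 10 most abundant models held 44.9% of the single-exon coding reads in replicate 2 and 41.6% in replicate 1, and Cebpb alone held 12.9% and 13.2%. Cebpb, a C/EBP transcription factor, led with 1870 reads in replicate 2 and 1789 in replicate 1 (1877 ± 31.2 CPM, SD, n = 2). Ftl1-ps1, a copy of the ferritin light chain gene, had 858 reads in replicate 2 and 726 in replicate 1. Jund, an AP-1 subunit, had 687 reads in replicate 2 and 683 in replicate 1, and Sephs2, the selenophosphate synthetase that makes the selenium donor for selenoproteins, had 625 and 547. These 4 models kept the same order of reads in both libraries. Eno1b, a copy of the enolase gene Eno1, had 548 reads in replicate 2 and 555 in replicate 1. Pcbp1, an RNA-binding protein of C-rich sequences, had 326 in replicate 2 and 347 in replicate 1. The 2 libraries placed Sephs2 and Eno1b in different order, so these neighbours are not separated by the data. Since a read counts 1 cDNA molecule whatever its length, levels were not divided by length.

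**Figure D1:**
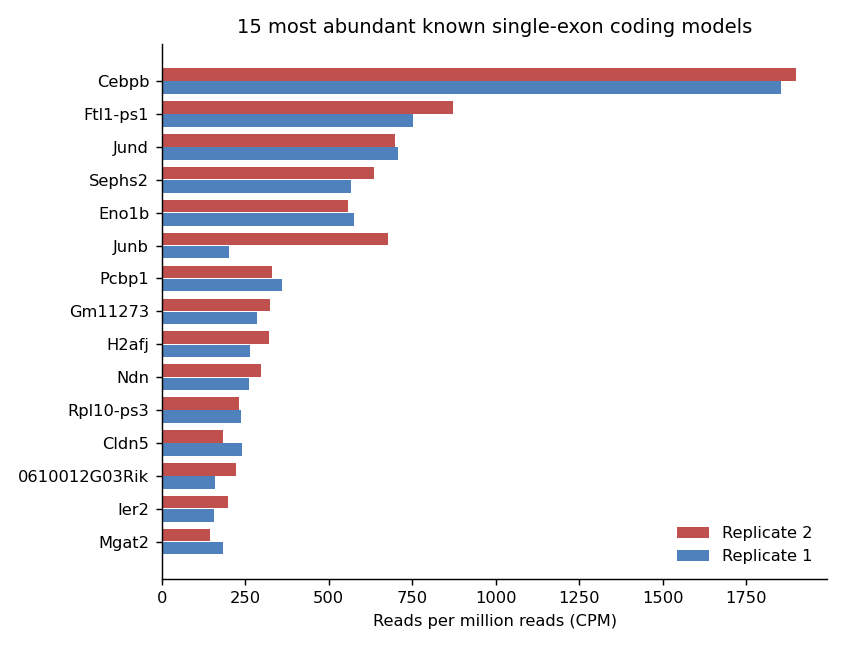
Level in CPM (horizontal axis) of the 15 most abundant known single-exon coding models, with 1 bar for replicate 2 above 1 bar for replicate 1. Cebpb stands highest in both libraries, and Junb is the model in which the bars differ most, with 667 reads in replicate 2 and 194 in replicate 1.

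With 10 or more reads in the libraries together, 234 single-exon models could be tested, and 13 of them (5.56%) differed between the libraries at an adjusted p under 0.05, against 8.44% of all 10199 known models tested (two-sided exact binomial test, Benjamini-Hochberg adjustment over all of them). Of the 13, 10 were higher in replicate 2 (background 3.67%) and 3 lower in replicate 2 (background 4.77%). The split depends on the scaling: 21 were higher and 0 lower with edgeR's TMM factors, and 14 higher and 0 lower with DESeq2's size factors. The share of all known models called with these factors is not given here. The shift in the split can therefore not be read as particular to single-exon models. The median log2 ratio was -0.05 over the 234 models and -0.20 over all known models tested. With TMM these medians were 0.18 and 0.04, so the sign of both turned. A change of scaling moves every log2 ratio by the same amount, so it cannot test the gap between the medians. The ratio was within 1.5 times for 174 of the 234 models and for 49 of the 54 with at least 100 reads. Across the 234 models, which are not independent replicates, Spearman's rho of the reads was 0.901.

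**Figure D2:**
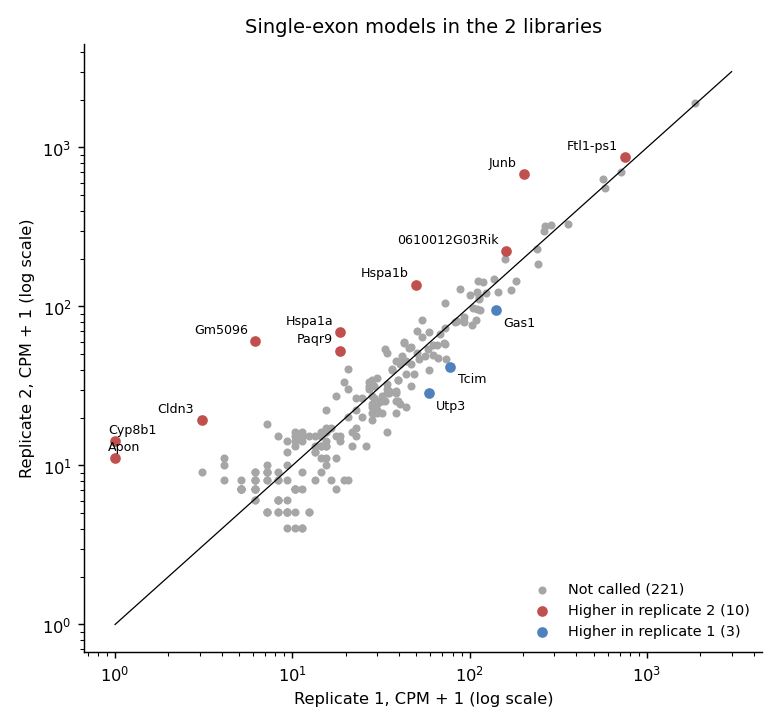
Level of the 234 tested single-exon models in replicate 2 (vertical axis) and replicate 1 (horizontal axis), both as CPM + 1 on a log scale, with the line of equality. The 10 models called higher in replicate 2 lie above the line and the 3 called higher in replicate 1 below it, while 221 were not called.

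The C/EBP transcription factors (2018 reads in replicate 2 and 1960 in replicate 1) and the AP-1 and immediate early genes (1653 and 1141), which respond to stimuli without new protein synthesis, held the most reads of the gene families listed. All 7 annotated single-exon models of the AP-1 and immediate early list and all 3 of the C/EBP list were detected and tested, and 1 of these 10 models was called, near the 8.44% of all known models. That gene was Junb, an AP-1 subunit, with 667 reads in replicate 2 and 194 in replicate 1, a ratio of 3.37 (95% interval 2.87 to 3.97, adjusted p = 8.92e-57, exact binomial test). Its relative Jund did not follow: the 687 and 683 reads gave a ratio of 0.985 (0.885 to 1.10). Jun, the third family member, had 62 reads in replicate 2 and 51 in replicate 1 and was not called. Ier2, an immediate early nuclear protein, had 196 reads in replicate 2 and 151 in replicate 1 (ratio 1.27, adjusted p = 0.181). With TMM factors Ier2 was also called higher in replicate 2. Zfp36, which binds AU-rich messages and speeds their decay, had 3 reads in replicate 2 and 10 in replicate 1 and was not called. The other 6 models of the list did not pass the test.

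Among the C/EBP factors, Cebpb had a ratio of 1.02 (0.959 to 1.09), Cebpa 0.859 (0.667 to 1.10) with 121 reads in replicate 2 and 138 in replicate 1, and Cebpd 0.801 (0.463 to 1.37) with 27 and 33. Cebpb exceeded the other members of its family by far in both libraries. Its 1870 and 1789 reads were all but 1 of the reads of its gene. With TMM or DESeq2 scaling Cebpb was called higher in replicate 2.

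Models of 5 further lists, of transcription factors and of zinc finger and BTB-Kelch genes, were sparse. Of 8 Sox models 4 had reads, led by Sox4 with 44 reads in replicate 2 and 41 in replicate 1, followed by Sox12 with 8 and 7. Of 14 forkhead models 7 had reads, and Foxc1, a factor of mesenchymal and vascular development, had 12 reads in replicate 2 and 20 in replicate 1. Foxq1 had 7 reads in replicate 2 and 0 in replicate 1, too few to test. Of the Maf factors, Maf had 4 reads in replicate 2 and 6 in replicate 1, and Mafa had 0 and 1. Of 20 POU and bHLH models only 5 had reads, and of 21 zinc finger and BTB-Kelch models 12 had, led by Klhl9, a substrate adaptor of cullin ubiquitin ligases, with 23 reads in replicate 2 and 28 in replicate 1. None of the 12 tested models of these 5 lists was called by the exact binomial test, too few models to set against the 8.44% of all known models.

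The inducible heat shock genes differed together. Hspa1a and Hspa1b encode nearly identical cytosolic chaperones of the 70-kDa family, lie side by side on chromosome 17, and are the genes whose promoters are printed above. Hspa1b, with 134 reads in replicate 2 and 47 in replicate 1, was 2.79-fold higher in replicate 2 (interval 1.99 to 3.98, adjusted p = 8.63e-09). Hspa1a, with 67 and 17, was 3.86-fold higher (interval 2.24 to 7.01, adjusted p = 2.10e-06). Both were higher in replicate 2 under every scaling tried. Their transcripts are 99.2% identical over the aligned part, so how the reads divide between them is uncertain, and the Hspa1b share of their joint reads was 66.7% in replicate 2 and 73.4% in replicate 1. Hspa2, the relative known for its high level in testis, had 55 reads in replicate 2 and 62 in replicate 1 and was not called (ratio 0.869, 0.593 to 1.27).

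Other called models had few or no reads in replicate 1. Gm5096, a single-exon relative of Bhmt, the liver enzyme that remethylates homocysteine with betaine, had 59 reads in replicate 2 and 5 in replicate 1 (ratio 11.6, 4.68 to 36.9, adjusted p = 9.02e-11). Bhmt itself, 99.4% identical to it, had 320 reads in replicate 2 and 17 in replicate 1. The spliced gene and its copy thus moved the same way, and reads of one could have been assigned to the other. Cyp8b1, the sterol 12-alpha-hydroxylase of bile acid synthesis, had 13 reads in replicate 2 and 0 in replicate 1 (adjusted p = 0.00545, exact binomial test). With the 0 set to 3 reads its ratio was 4.24, which is no lower limit because it leaves out counting error in the 13 reads. Apon, an apolipoprotein gene, had 10 reads in replicate 2 and 0 in replicate 1, a ratio of 3.26 on the same terms (adjusted p = 0.0281, exact binomial test). Cldn3, an epithelial tight junction protein, had 18 reads in replicate 2 and 2 in replicate 1 (ratio 8.81, 2.11 to 78.3, adjusted p = 0.00838). Paqr9, of the progestin and adipoQ receptor family, had 51 reads in replicate 2 and 17 in replicate 1 (ratio 2.94, 1.67 to 5.43, adjusted p = 0.00138). Beside these stand the 8 hepatocyte genes, which summed to 15657 CPM in replicate 2 but to 754 CPM in replicate 1. Their part in the result was not tested. Leaving these 8 genes out of the library totals gave 12 calls in place of 13.

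The remaining calls had ratios nearer to 1 than the calls above. Ftl1-ps1 had a ratio of 1.16 (1.05 to 1.28, adjusted p = 0.0467) and 0610012G03Rik, with 218 reads in replicate 2 and 154 in replicate 1, one of 1.39 (1.12 to 1.72, adjusted p = 0.0272). Lower in replicate 2 were Utp3, a factor of small ribosomal subunit assembly, with 27 reads against 56 in replicate 1 (ratio 0.472, adjusted p = 0.0208), and Tcim, a small regulator of transcription, with 40 against 74 (ratio 0.529, adjusted p = 0.0168). Gas1, a membrane-anchored co-receptor of hedgehog signals, had 92 reads in replicate 2 and 134 in replicate 1 in its shorter model (ratio 0.672, adjusted p = 0.0423), and 5 and 8 in its longer one. These 3 lower calls were lost with TMM factors, at an adjusted p of 0.112 for Utp3, 0.137 for Tcim and 0.409 for Gas1.

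Single-exon copies of spliced genes made up 52 of the 456 models, taking as a copy any model with at least 90% identity to a spliced transcript of another gene over at least 50% of its length. The word describes sequence only and does not say which gene came first. They held 2873 reads in replicate 2 and 2593 in replicate 1, 37 of the 52 were at least 99% identical to the relative and 7 showed no difference over the aligned part. Of the 29 copies with at least 10 reads, the copy held a median of 21.4% of the reads of copy and relative together, with a range of 1.63 to 99.2%. Only 2 copies had more reads than the relative in both libraries, Rpl10-ps3 and Imp3.

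Individual pairs divided their reads in much the same way in both libraries. Ftl1-ps1 had 858 reads beside 1034 of Ftl1 in replicate 2, and 726 beside 801 in replicate 1, so the copy held 45.3% (Wilson interval 43.1 to 47.6%) in replicate 2 and 47.5% (45.0 to 50.1%) in replicate 1. Eno1b held 42.4% of its reads and those of Eno1 in replicate 2 and 40.5% in replicate 1. Rpl10-ps3, identical to the message of the X-linked ribosomal gene Rpl10 over 740 aligned bases, had 227 reads in replicate 2 and 230 in replicate 1, while Rpl10 had 27 and 14. The copy on chromosome 9 was therefore credited with 89.4% and 94.3% of the joint reads. Rps27rt, identical to Rps27 over 341 bases, held 25.6% in replicate 2 and 24.1% in replicate 1. Sap18b, identical to Sap18 over 780 bases, held 48.7% and 43.6%. Gm11273, the least alike of the abundant copies at 94.4% identity to Cox5b, a subunit of cytochrome oxidase, held 22.2% in replicate 2 and 21.1% in replicate 1. With identical sequence the division of these reads rests on how the authors placed them, which is not given in the sources used here, so the level of each copy is uncertain.

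**Figure D3:**
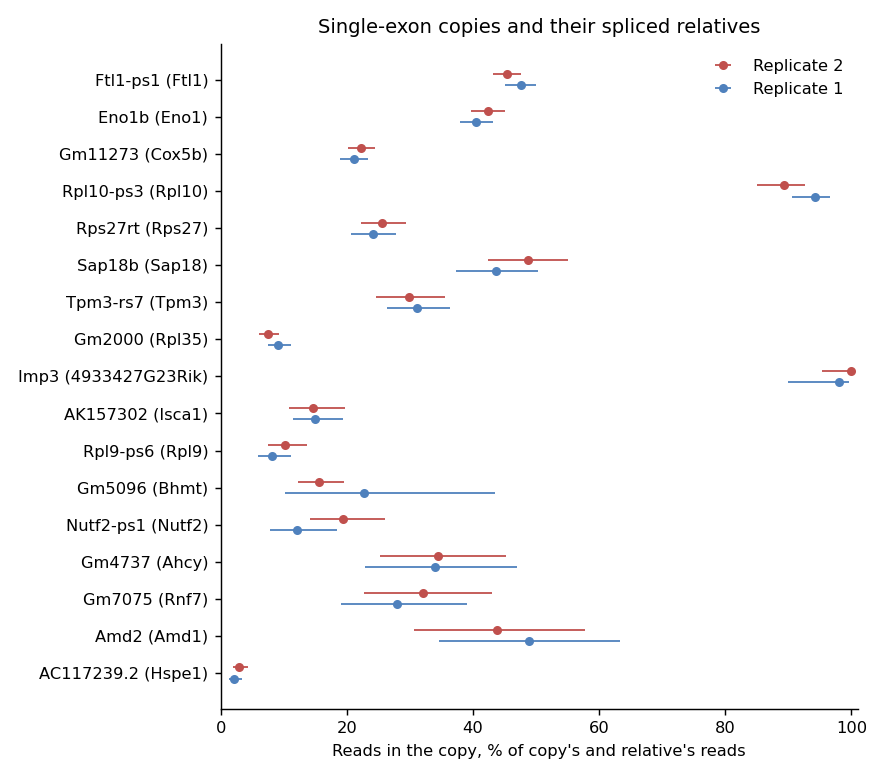
Percent of the reads of copy and relative that were assigned to the single-exon copy (horizontal axis, Wilson 95% intervals), in replicate 2 and replicate 1, for copies with a summed count of 40 or more reads, 1 of which is not shown. The relative is in parentheses, the copies shown other than Rpl10-ps3 and Imp3 held less than their relative in each library, and the intervals of the libraries overlap in every pair shown.

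A further 11 models resembled another single-exon gene, with 510 reads in replicate 2 and 377 in replicate 1. Beside Hspa1a and Hspa1b, these included the X-linked pair Rtl8a and Rtl8b, derived from a retrotransposon capsid gene and 99.6% identical. Rtl8a had 78 reads in replicate 2 and 89 in replicate 1, and Rtl8b had 65 in each.

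Replication-dependent histones, made in S phase, were detected in 28 of 66 single-exon models with 358 reads in replicate 2 and 262 in replicate 1. None of the 8 tested was called by the exact binomial test (8.44% of all known models were), although Hist2h2aa2 was called higher in replicate 2 with TMM factors (adjusted p = 0.00958). Most reads lay in few models: Hist2h2aa2 had 103 reads in replicate 2 and 69 in replicate 1, Hist2h2aa1 78 and 79, and the linker histone Hist1h1c 52 and 31. Hist3h2a had 39 in replicate 2 and 34 in replicate 1 and Hist1h4h 39 and 19. The first 2 genes code for the same histone H2A, and their printed stem-loop stretches are identical. They were not compared as copies, so how reads divide between them is uncertain. Hist2h2aa1 was not called with TMM factors. By their annotated end, 21 models stop within 60 bases after the stem-loop. Of these, 8 had reads, 236 in replicate 2 and 179 in replicate 1, and 1 of the 21 carries a polyadenylation signal (AATAAA or ATTAAA in the last 50 bases). Another 23 models run on past the stem-loop, 14 of them with reads (107 in replicate 2 and 74 in replicate 1), and 11 of the 23 carry the signal. The deposited counts do not give the end of each read, so the annotated end need not be the end of the molecules.

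The replacement histones, made also outside S phase, were detected in 4 of 28 models. H2afj, an H2A variant, had 315 reads in replicate 2 and 255 in replicate 1. H1f0, a linker histone of differentiated cells, had 124 in replicate 2 and 163 in replicate 1. H2afx, the variant phosphorylated at DNA breaks, had 112 in replicate 2 and 108 in replicate 1, and H1fx, another linker histone, 8 and 5. The annotated H2afx model runs on past a stem-loop match. None of the 4 was called by the exact binomial test, too few to set against the 8.44% of all known models. H2afj was called higher in replicate 2 with TMM or DESeq2 scaling.

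Of the genes of the surface and vascular lists named in this paragraph, Cldn5 had the most reads and most others had few. Cldn5, the tight junction protein of endothelium, had 180 reads in replicate 2 and 232 in replicate 1 (ratio 0.760, 0.622 to 0.927, adjusted p = 0.0634). Summed over all models of the gene, which adds 1 read in replicate 1, it was called lower in replicate 2 (adjusted p = 0.0274), but the adjusted p was 0.683 with TMM factors, 0.299 with DESeq2 factors and 0.169 with a denominator of known models. The other 6 genes of the endothelium list summed to 162 reads in replicate 2 and 250 in replicate 1. Of these, Sox17, Gja4, Pecam1 and Tie1 had fewer reads in replicate 2 and Sox18 and Cdh5 had more, and their part in the Cldn5 values was not tested. Rhob, a small GTPase, had 46 reads in replicate 2 and 63 in replicate 1, and Aplnr, the apelin receptor, 56 and 69. Of 51 other G protein coupled receptors 14 models were detected, led by Lpar6, a receptor for lysophosphatidic acid, with 24 reads in replicate 2 and 31 in replicate 1. Gpr27, an orphan receptor, had 7 reads in replicate 2 and 15 in replicate 1. Of 7 potassium channel models 4 had reads, and Kcna5, a voltage-gated channel, had 7 in replicate 2 and 19 in replicate 1 (adjusted p = 0.138). The protocadherin beta cluster, neuronal adhesion genes on chromosome 18, had reads in 9 of 22 models but only 10 in replicate 2 and 9 in replicate 1 in all. No read fell in 1323 olfactory, vomeronasal and taste receptor models, 16 interferons, 61 keratin-associated and cornified envelope models or 2 connexins, which at this depth sets a limit of 3.05 CPM in replicate 2 and 3.11 CPM in replicate 1 for each.

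**Figure D4:**
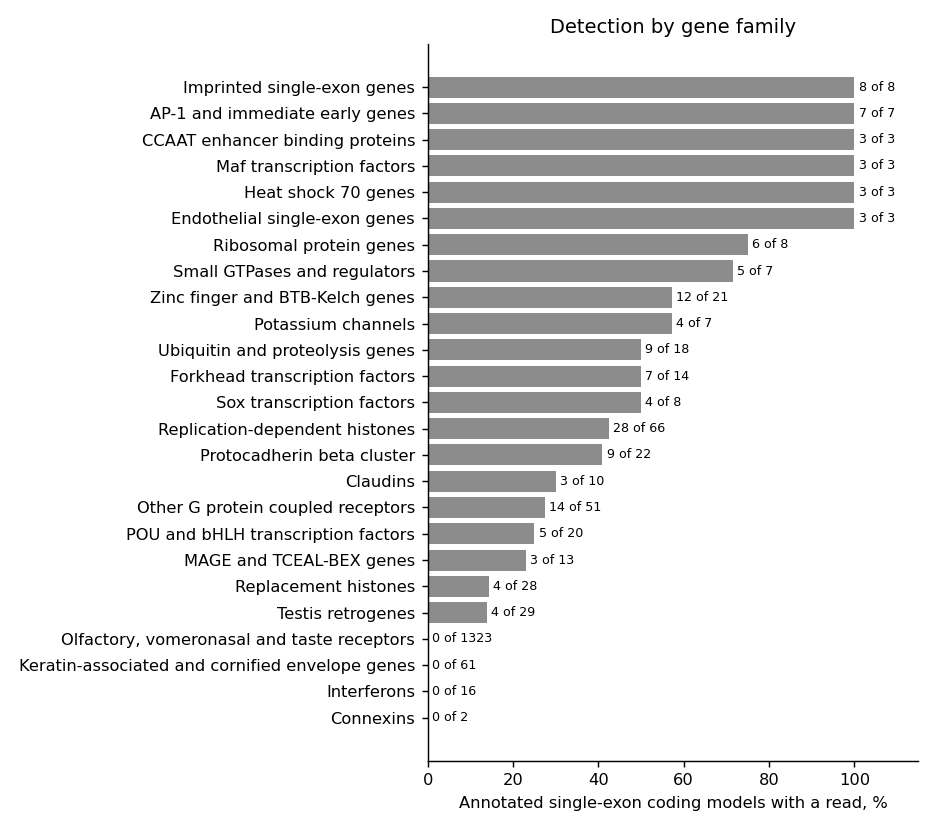
Percent of the annotated single-exon coding models of each gene family that had at least 1 read in either library (horizontal axis), with the counts beside each bar. The C/EBP, Maf, AP-1, heat shock 70, endothelial and imprinted lists were fully detected, the Sox list in 4 of 8 models, and the olfactory, vomeronasal and taste receptors and the keratin-associated genes had no read.

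Imprinted single-exon genes, expressed from 1 parental allele, and their listed relatives were all seen, 8 of 8. Ndn (necdin), expressed from the paternal allele in neurons and elsewhere, had 292 reads in replicate 2 and 253 in replicate 1. Nap1l5 had 43 and 39, Mcts2, a retrogene, 14 and 17, and Magel2, the neighbour of Ndn, 1 in each library. The deposited counts are not split by allele, so the parental origin of these reads was not analysed here. Of 13 MAGE and TCEAL-BEX models 3 were detected, among them Magee1 with 13 reads in replicate 2 and 14 in replicate 1.

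Single genes and lists of other roles follow. Mgat2, which adds N-acetylglucosamine to N-glycans in the Golgi, had 141 reads in replicate 2 and 176 in replicate 1. Rnf26, a ubiquitin ligase of the endoplasmic reticulum, led 9 detected models of 18 in the ubiquitin list with 57 and 68, and overlaps another gene on the same strand, so its reads are uncertain. Of the testis retrogenes 4 of 29 were detected, among them Cstf2t, a cleavage stimulation factor subunit, with 22 reads in replicate 2 and 41 in replicate 1. Of 8 ribosomal protein models 6 were detected, with 437 reads in replicate 2 and 425 in replicate 1. Of these reads Rpl10-ps3, whose level is uncertain, held 227 in replicate 2 and 230 in replicate 1. None of the tested models of these lists (5 ubiquitin, 3 testis retrogene and 5 ribosomal protein models) was called by the exact binomial test. These are too few to set against the 8.44% of all known models.

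Most of these genes have only single-exon models in the annotation, and those models held nearly all reads of the gene. In the 346 genes with no annotated spliced transcript, the models held 98.7% of the reads of the gene in replicate 2 and 98.5% in replicate 1. The other 107 genes also have an annotated spliced transcript, and there the single-exon models held 54.3% in replicate 2 and 49.2% in replicate 1. Over the models of genes with at least 10 reads, the median share of reads of the gene was 44.0% for the 83 with a spliced transcript and 100% for the 189 without. The 83 spread over the whole range, with 22 under 10% and 27 at 90% or above. Of the 189, 178 stood at 90% or above and 3 under 10%.

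The extremes show what this range means for single genes. Junb had 667 of 668 reads of its gene in the single-exon model in replicate 2 and 194 of 195 in replicate 1, although the annotation also lists a spliced form. Hnrnpf, an RNA-binding splicing regulator, had 31 of 383 reads in replicate 2 and 32 of 446 in replicate 1. Id2, an inhibitor of bHLH factors, had 3 of 384 and 1 of 364, and the metallothionein Mt1 6 of 237 and 4 of 160. Crebzf lay between, with 29.0% in replicate 2 and 39.4% in replicate 1. In Hnrnpf, Id2 and Mt1 the single-exon model is a minor form, and its level is not the level of the gene. The share did not differ between the libraries for any of 58 models tested with Fisher's exact test and Benjamini-Hochberg adjustment (0.351% of 12813 known models did, 0.0546% with a higher and 0.297% with a lower share in replicate 2), and 1 of the 58 had an unadjusted p under 0.05. The test took any model whose gene had reads outside it. Models that held nearly all reads of the gene, such as Junb, could not be called, so the 0 says nothing about them.

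**Figure D5:**
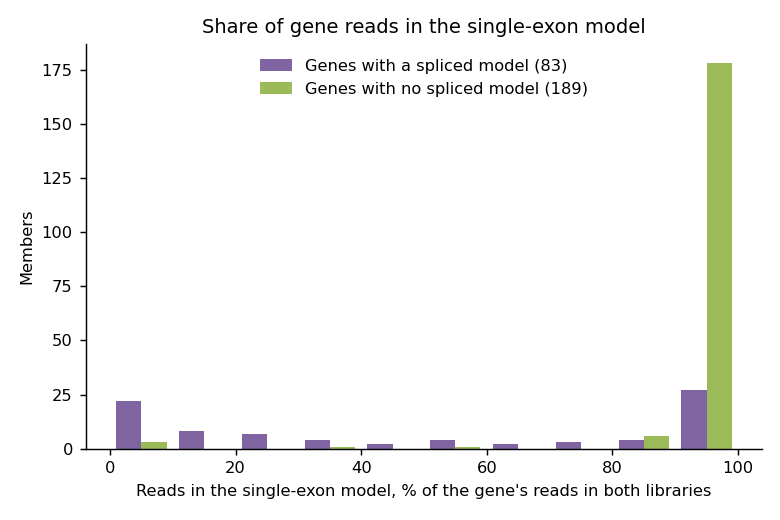
Number of single-exon models (vertical axis) by their percent of the reads of the gene over both libraries (horizontal axis), for 83 models of genes with an annotated spliced transcript and 189 of genes without one, all with at least 10 gene reads. Of the 189 models of genes without a spliced transcript, 178 stand at 90% or above and 3 under 10%. Models of the other genes are spread out with most at either end.

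The detected models were somewhat shorter in the median than spliced ones, with shorter coding sequences. Their median length was 2154 bases, against 2508 for spliced coding models with reads, and their median coding sequence was 852 against 1197 bases. Median GC content was 53.7% against 51.0%, and 66.9% against 73.5% had a polyadenylation signal. By annotated length, models of 1000 to 2000 bases held 48.4% of the single-exon reads in replicate 2 and 47.4% in replicate 1, and those over 5000 bases 2.45% in each. Among spliced coding models those over 5000 bases held 3.50% in replicate 2 and 4.31% in replicate 1. Spearman's rho of length and mean CPM was 0.09 over the 456 models and -0.05 over spliced models, both as descriptions across models. Long single-exon messages were nonetheless seen. Purb, a single-stranded DNA and RNA binding protein with a model of 8319 bases, had 52 reads in replicate 2 and 55 in replicate 1, and Mars2, the mitochondrial methionyl-tRNA synthetase with 11294 annotated bases, had 15 and 14. The deposited length is that of the annotated model, so these counts do not show that the reads span it.

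Reads on the opposite strand were present at some of these genes. Single-exon models lying at least 50% inside a member on the other strand held 449 reads in replicate 2 and 483 in replicate 1, at 85 of the 456 models. At 10 of them the opposite strand had more reads than the gene itself in both libraries. Klhl9 had 57 opposite reads in replicate 2 and 58 in replicate 1, beside 23 and 28 of its own. How the authors set the strand of unspliced reads is not given in the sources used here, so reads of a gene and of its opposite strand cannot be fully told apart.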

How the data were processed

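Long reads of 2 libraries of 1 group were compared. Per the file headers, the deposited tables hold 1 count of long reads per transcript model and library, whole numbers not normalized or pooled by the authors, with the class, exon number and annotated length of each model; the deposited annotation on mm10 names TALON as its source and follows GENCODE M21. For the aligner, software versions and filters, the sources used here give nothing. All 456 members were matched to GENCODE M21 transcripts by identifier, for position, sequence and coding range. Models on ERCC sequences were removed. Reads in replicate 2 were tested against its share of all reads with a two-sided exact binomial test (scipy 1.17.1, at least 10 reads over both libraries), and shares of gene reads with Fisher's exact test (at least 20 gene reads in each library), both with Benjamini-Hochberg adjustment over all known models. Ratio intervals are exact (Clopper-Pearson), intervals of shares are Wilson, both at 95%, and log2 ratios add 0.5 reads. Reads carry no molecular identifiers in the deposited counts, so intervals and the floor of 3 reads cover counting error only. Relatives were found with BLAST+ 2.17.0. Alternatives used edgeR 4.0.16 (TMM) and DESeq2 1.42.0 factors, other denominators, filters and gene sums. Both tests were tested on simulated data. Models were named by a rule: the 15 highest, the 10 largest called ratios in each direction, the 3 highest of each family, the 5 with most reads among genes with spliced transcripts, the 5 longest with at least 10 reads and the 5 largest called share differences, of which there were none. A few models that the rule names are not reported here. Jun, Aplnr, Hist3h2a, Hist1h4h, Hnrnpf, Mt1, Crebzf, H1fx, Imp3, Sap18b, Rtl8a and Rtl8b were added after their values were seen. The members, families and marker lists were chosen with earlier results of these data known.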

Additional observations from a re-analysis of the deposited data

How the results depend on the processing

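The number of single-exon models called, 13 with total reads as the scale, was 21 with TMM factors (21 higher and 0 lower in replicate 2) and 8 with no filter on low counts (7 higher and 1 lower). It stayed between 11 and 17 with DESeq2 factors, a denominator of known models, a minimum of 20 reads, a denominator without hepatocyte genes, and gene sums. The shares of all known models called in these other settings are not given here, so these counts have no background beside them. The median log2 ratio of -0.05 turned to 0.18 with TMM, 0.0625 with DESeq2 factors and 0.012 with a denominator of known models. The mean share of reads in these models, 1.44%, was 2.01% of the reads of known models and 1.11% when genes with an annotated spliced transcript were left out; with 1 library left out it was 1.40 to 1.47%. The median share of gene reads was 100% in all settings. In the main setting 189 of the 272 models belong to genes without an annotated spliced transcript, so this pooled median could hardly move. For the 83 others the median in the main setting was 44.0%. At a gene minimum of 10, 20 or 50 reads 0 models differed in share (Fisher's exact test, 1, 1 and 0 with an unadjusted p under 0.05). Models that held nearly all reads of the gene could not be called in that test. Of 65 named ratios under TMM, 7 gained and 3 lost a call; under DESeq2 factors 3 gained and 3 lost, with a denominator of known models 1 lost and with gene sums 1 gained, and none changed direction with a call. No paired analysis was possible because the series has 1 group. Depth limits models with few reads: 222 of 456 had under 10 reads and were not tested, and a 2-library design gives no spread between animals.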
